A study of Homo sapiens with 8 samples.

Results

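The set described here holds 43 genes of the ATF4 arm of the integrated stress response, chosen by name from stress regulators, amino acid synthesis, amino acid transport and tRNA charging. The choice was made with earlier results of these data known. The genes were found by matching symbols to the gene identifiers of a table of 63140 genes. All 43 were present once, and all 43 were among the 24057 genes that passed the filter on low counts. The measurements are read counts from 8 ChIRP libraries. In ChIRP, short for chromatin isolation by RNA purification, biotinylated probes are hybridised to fixed, sonicated lysate and captured on streptavidin beads together with what comes down with them. Cells of MOLM13 and OCI-AML4, established human acute myeloid leukaemia lines, were harvested on day 3 after nucleofection of an editor with guide RNA. AAVS1 KO and AAVS1 CBE, both given the genotype WT in the labels, received Cas9 ribonucleoprotein or a cytosine base editor with control guides. HOTSCRAMBL KO and HOTSCRAMBL CBE received the same editors with guides against HOTSCRAMBL, a long non-coding RNA. Cas9 cuts both DNA strands, while a cytosine base editor changes C to T and makes no double-strand break. Every group held 2 libraries, replicate 1 labelled MOLM13 and replicate 2 labelled OCI-AML4.

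The integrated stress response starts when a kinase that senses amino acid shortage, misfolded protein, haem deficiency or double-stranded RNA phosphorylates the translation factor eIF2. General translation then falls while the mRNA of ATF4 is translated more, because of upstream reading frames in its leader. ATF4 is a leucine zipper transcription factor that pairs with C/EBP family proteins and binds C/EBP-ATF response elements near genes for amino acid uptake and synthesis, tRNA charging, and a second layer of regulators such as DDIT3, ATF3, CHAC1 and TRIB3. Because ATF4 is controlled largely at translation, its own RNA need not follow its activity. Leukaemia cells are known to draw on this response when amino acids are limiting.

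The myeloid identity of the libraries could be checked against marker genes. Of 10 myeloid markers, 8 had a mean level of at least 1 CPM (read counts scaled to library size, corrected by the trimmed mean of M-values, TMM), and their sum ran from 1547 to 2083 CPM per library. The sum moved with the groups: it was 1817 and 1698 CPM in the AAVS1 KO libraries and 1926 and 2083 CPM in HOTSCRAMBL KO, but 1688 and 1695 CPM in AAVS1 CBE and 1547 and 1564 CPM in HOTSCRAMBL CBE. The groups did not overlap with either editor, LYZ alone ran from 116 to 702 CPM, and the part of these markers in the members' values was not tested. CD14 had a median of 0, and CEBPE one of 0.863 CPM. Summed markers of T cells, erythroid, epithelial and fibroblast cells stayed at or below 2.60 CPM per library, and CD3E, CD2, HBB, HBA2, KRT5, KRT14, KRT19, COL3A1 and LUM were at 0 throughout. Total counts ran from 20548300 to 37970163 per library. Only 119 of 24057 genes (0.495%) differed between libraries labelled MOLM13 and OCI-AML4 in edgeR's test, which is few for 2 different lines. Deviations from the group means of libraries with the same line label correlated with r of only 0.00851 to 0.0245 between groups over the tested genes. Whether the libraries come from the lines on their labels was not tested, and agreement between replicates in what follows is agreement between libraries that carry these labels. The labels name no probe target, no input library and no share of cells edited, so every value is an amount of RNA in a pull-down. HOTSCRAMBL itself is not analysed here. As in any bulk measurement, fewer cells carrying an RNA and less RNA per cell cannot be told apart. Nothing in the labels says that the libraries of one label came from separate cultures of that line, so p-values measure only the spread between these libraries.

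The C/EBP-ATF response element was searched as TGATGNAA, on both strands, in RefSeq promoter windows of GRCh38.p14 that run from 250 bases before to 50 bases after a gene's start. Of the 43 genes, 36 had a window, and 15 of the 36 (41.7%) held a match, against 1217 of 27305 genes in the same table (4.46%). The stricter form TGATGCAA, which is contained in the first, was found in 10 of the 36 (27.8%) and in 1.08% of all genes. Some genes have several windows. Counted by window, TGATGNAA was in 15 of 59 for the members (25.4%) and in 1270 of 35116 in all (3.62%). The members were chosen as genes of the ATF4 pathway, so an excess was set in part by that choice and is a description only. These sites are shown because members that carry the element had very different values. Each line gives the gene's strand from 5′ to 3′, with the match in capitals; where the element lies on the other strand, the capitals are its reverse complement.
SLC1A5: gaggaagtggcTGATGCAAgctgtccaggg
SLC1A4: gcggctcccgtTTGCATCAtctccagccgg
IARS1: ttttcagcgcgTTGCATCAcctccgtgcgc
AARS1: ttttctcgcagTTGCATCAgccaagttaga
CEBPG: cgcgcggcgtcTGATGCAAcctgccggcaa
JDP2: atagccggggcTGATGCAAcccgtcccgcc
CHAC1: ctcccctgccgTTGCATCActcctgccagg
MARS1: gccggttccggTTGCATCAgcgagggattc
CARS1: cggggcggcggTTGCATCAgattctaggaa
ATF3: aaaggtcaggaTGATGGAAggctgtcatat
ASNS: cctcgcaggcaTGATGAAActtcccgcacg
SLC7A1: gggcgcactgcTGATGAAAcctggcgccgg

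The SLC1A5 stretch is chr19:46784893-46784922 on the minus strand, and its match begins at −97, counted in bases from the annotated start with negative values upstream. CHAC1 carries its match at −209, in chr15:40953251-40953280 on the plus strand, and ATF3 at −191, in chr1:212565205-212565234 on the plus strand. In ASNS the match is the known ATF4 site of its nutrient-sensing promoter unit, at −68 in chr7:97872458-97872487 on the minus strand. GARS1, NARS1 and SLC3A2 also held a match. As a description, the element was present in 9 of the 23 members with a window that were higher with base editing and in 6 of the 12 that did not pass the test there. PSPH, SLC7A11, ALDH1L2, YARS1, NUPR1, PYCR1 and SHMT2 had no window in the table.

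Levels per kilobase of annotated exon, averaged over the 8 libraries, ordered the members widely. PPP1R15A, which directs protein phosphatase 1 to eIF2 and so ends the response, stood highest at 209.7 CPM per kilobase (CPM/kb), with group means from 153 in HOTSCRAMBL KO to 263 in AAVS1 CBE. ATF4 followed at 108 CPM/kb (group means 88.1 to 124) and SLC7A5 at 80.7 CPM/kb (63.2 to 108). The ranges of ATF4 and SLC7A5 overlapped, while that of PPP1R15A lay above both. NARS1 at 53.9, MARS1 at 49.8, SLC1A5 at 46.3 and CEBPB at 38.9 CPM/kb came next. The lowest were CBS at 1.70, SLC6A9 at 2.53, ASNS at 2.65 and NUPR1 at 3.52 CPM/kb. Exon length here is the union over all annotated transcripts, which lowers the per-kilobase value of genes with many isoforms such as IARS1.

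The first comparison asked how base editing of HOTSCRAMBL changed these RNAs against base editing at AAVS1. Of the 43 members, 25 rose and 1 fell at a Benjamini-Hochberg adjusted p under 0.05 in edgeR's quasi-likelihood test over all genes, and the median log2 fold change of the members was 0.51. Over all 24057 genes tested, 8.83% passed, 4.56% higher and 4.27% lower, with a median of −0.02. Among the 9645 genes with a mean of at least 10 CPM, a level all 43 members reached, 10.5% were higher and 9.33% lower. The values of the 2 groups did not overlap for 37 of 43 members, against 46.4% of all genes tested. The sign was the same in both labelled lines for 41 members. Without TMM scaling, where the median over all genes was −0.15 and the calls became 782 higher and 1616 lower, 17 members were higher and 1 lower. Leaving out any 1 library of these groups left a lone library in a group. Fewer members were then called higher, and fewer of all genes were called as well. The members' median was then 0.48 to 0.55, against −0.11 to 0.05 for all genes.

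With Cas9 the same genes did not move as a block. In HOTSCRAMBL KO against AAVS1 KO, 7 members rose and 1 fell, and the members' median was 0.07. Over all genes tested 8.76% passed, 4.51% higher and 4.25% lower, with a median of −0.01. Among the 9645 genes with a mean of at least 10 CPM, 8.96% were higher and 9.86% lower. The groups did not overlap for 24 of 43 members, against 44.8% of all genes. The sign was shared by both lines for 30 members. Without TMM, where the median over all genes was −0.17 and the calls became 840 higher and 1695 lower, 6 members were higher and 6 lower, and the members' median changed sign to −0.09. Leaving out any 1 library of these groups, with a lone library left in a group, lowered both the members called higher and the calls over all genes. The members' median was then −0.06 to 0.13, against −0.19 to 0.10 for all genes.

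**Figure D1:**
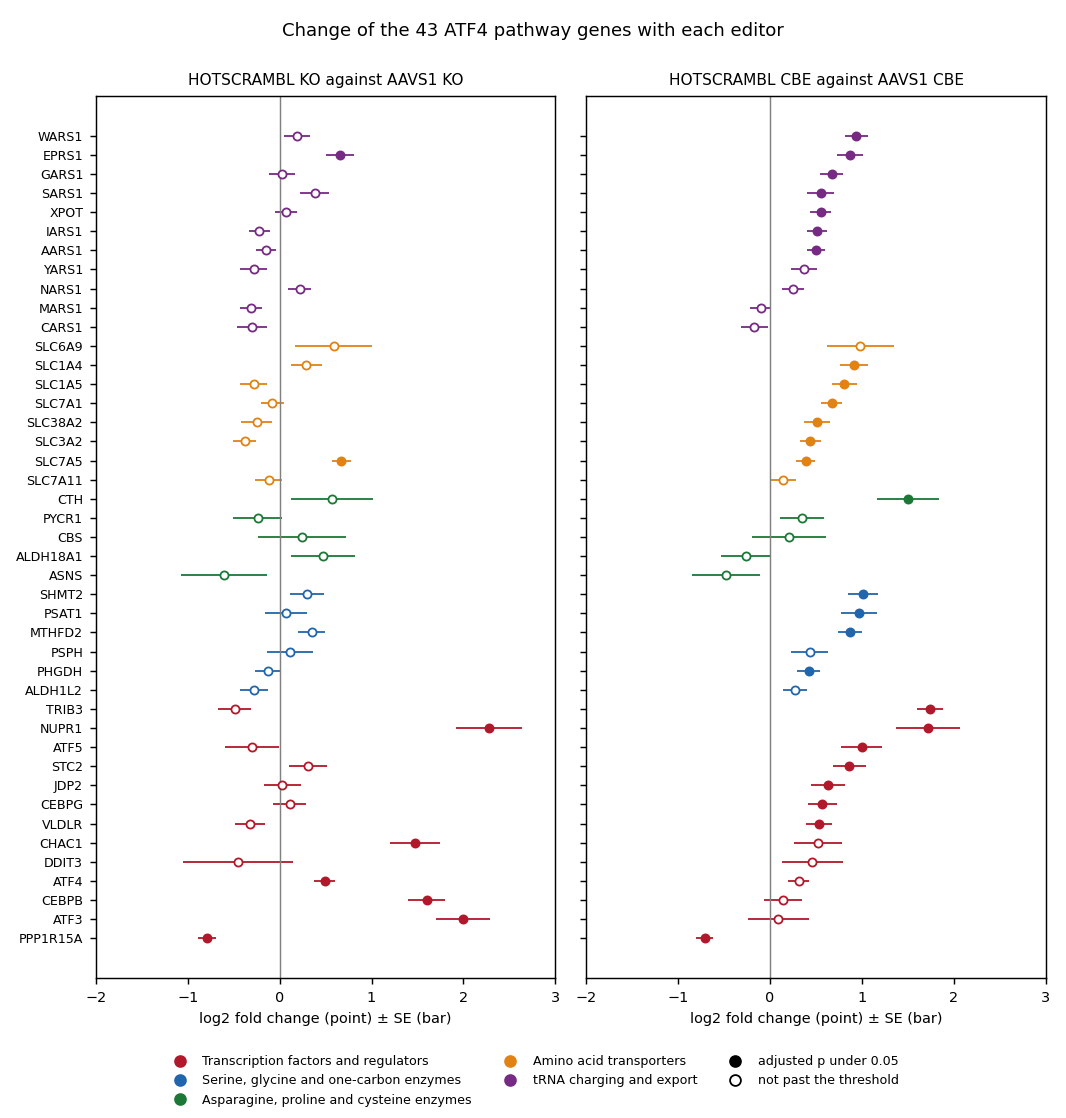
Log2 fold change of each of the 43 genes (point, with its standard error as a bar) in HOTSCRAMBL against AAVS1, with Cas9 on the left and with base editing on the right, grouped by role and ordered by the base editing value. Filled points passed the adjusted p threshold of 0.05. With base editing 25 points are filled on the right of zero, while with Cas9 the 7 filled points right of zero are mostly regulators.

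Of the 13 transcription factors and regulators, 7 rose with base editing and 1 fell. With Cas9 5 rose and 1 fell, and only NUPR1 and PPP1R15A passed in both. ATF4 (chromosome 22, 39519695 to 39522683, GRCh38) had a mean of 283 CPM over the 8 libraries. Pairs of values below are in the order MOLM13, OCI-AML4. Its level was 235 and 225 CPM in AAVS1 KO and 333 and 314 CPM in HOTSCRAMBL KO, or 0.49 on the log2 scale (SE 0.116, edgeR adjusted p 0.00626). With base editing it went from 239 and 278 to 321 and 320 CPM, or 0.31 on the log2 scale (SE 0.111, edgeR adjusted p 0.0862), which did not pass, though it did by DESeq2 (adjusted p 0.0341) and limma-voom (adjusted p 0.0189). Both HOTSCRAMBL groups lay above both controls, and the Cas9 and base editing effects differed by 0.18 (SE 0.161, edgeR adjusted p 0.688). The Cas9 call was lost without AAVS1 KO replicate 1 (0.55, edgeR adjusted p 0.0909), without AAVS1 KO replicate 2 (0.45, edgeR adjusted p 0.166), without HOTSCRAMBL KO replicate 1 (0.41, edgeR adjusted p 0.163), without TMM (0.33, edgeR adjusted p 0.0791) and when only these 4 libraries were fitted (0.51, edgeR adjusted p 0.0514). The table names 4 ATF4 pseudogenes, and reads that fit both a gene and a copy were not counted.

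TRIB3, a pseudokinase induced by ATF4 that in turn restrains it, had the smallest p of all members. It stood at 61.8 and 77.1 CPM in AAVS1 CBE and at 208 and 256 CPM in HOTSCRAMBL CBE, a 3.34-fold rise (log2 1.74, SE 0.142, edgeR adjusted p 1.69e-09). In AAVS1 KO it stood at 71.5 and 86.3 CPM and in HOTSCRAMBL KO at 52.8 and 59.6 CPM, or −0.49 on the log2 scale (SE 0.178, edgeR adjusted p 0.0941), which did not pass. It passed as lower without TMM (−0.65, edgeR adjusted p 0.0166), by DESeq2 (−0.46, adjusted p 6.44e-04) and by the quasi-likelihood fit on the dispersion trend (−0.49, edgeR adjusted p 0.0354). The base editing libraries were thus the highest of the 8 and the Cas9 libraries the lowest, without overlap with either control.

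ATF3, CEBPB and CHAC1 passed with Cas9 and not with base editing. ATF3, a stress-induced repressor of the same family, stood at 13.7 and 12.8 CPM in AAVS1 KO and at 50.9 and 53.8 CPM in HOTSCRAMBL KO, a 3.97-fold rise (log2 1.99, SE 0.294, edgeR adjusted p 2.57e-05). In AAVS1 CBE it was at 15.6 and 13.2 CPM and in HOTSCRAMBL CBE at 16.4 and 14.2 CPM (log2 0.09, SE 0.33, edgeR adjusted p 0.915), and these groups overlapped. CEBPB, a C/EBP partner of ATF4, went from 41.6 and 50.1 to 133 and 143 CPM with Cas9 (log2 1.60, SE 0.199, edgeR adjusted p 2.16e-06) and from 59.2 and 37.8 to 55.7 and 51.8 CPM with base editing (log2 0.14, SE 0.207, edgeR adjusted p 0.776). The 2 HOTSCRAMBL KO libraries were the highest of all 8 for both genes. CHAC1, which degrades glutathione, went from 21.3 and 17.2 to 59.6 and 47.7 CPM with Cas9 (log2 1.47, SE 0.274, edgeR adjusted p 5.39e-04), a call that was lost without AAVS1 KO replicate 2 (1.35, edgeR adjusted p 0.0515). With base editing CHAC1 went from 22.6 and 24.3 to 31.3 and 36.5 CPM (log2 0.52, SE 0.258, edgeR adjusted p 0.26). Its groups did not overlap with either editor.

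NUPR1, a small chromatin-associated stress protein, rose with both. It stood at 8.27 and 7.24 CPM in AAVS1 KO and 33 and 42.2 CPM in HOTSCRAMBL KO (log2 2.28, SE 0.357, edgeR adjusted p 5.88e-05), and at 7.17 and 7.95 CPM in AAVS1 CBE and 24.7 and 24.8 CPM in HOTSCRAMBL CBE (log2 1.72, SE 0.35, edgeR adjusted p 0.00143). The base editing call of NUPR1 was lost without AAVS1 CBE replicate 1 (1.71, edgeR adjusted p 0.072) and without HOTSCRAMBL CBE replicate 1 (1.61, edgeR adjusted p 0.0943). Of its exon length, 16.5% is shared with another annotated gene, where reads were not counted. PPP1R15A was the only member that fell. Its level was 959.5 and 837 CPM in AAVS1 KO against 607 and 442 CPM in HOTSCRAMBL KO (log2 −0.79, SE 0.0944, edgeR adjusted p 1.14e-06), and 991 and 817 CPM in AAVS1 CBE against 586 and 519.6 CPM in HOTSCRAMBL CBE (log2 −0.71, SE 0.0923, edgeR adjusted p 5.46e-06). The falls were 1.73-fold and 1.63-fold, and the test of their difference gave −0.08 (SE 0.132, edgeR adjusted p 0.862).

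Other regulators passed with base editing only, with log2 fold changes of 1.00 for ATF5, 0.86 for STC2, 0.63 for JDP2, 0.57 for CEBPG and 0.53 for VLDLR. ATF5 is another factor translated under stress, STC2 a secreted glycoprotein hormone, JDP2 a repressor of the AP-1 family, CEBPG a C/EBP partner of ATF4, and VLDLR a lipoprotein receptor. Mean levels over the 8 libraries were 41.4 CPM for ATF5, 61.3 CPM for STC2, 64.0 CPM for JDP2, 100.3 CPM for CEBPG and 111 CPM for VLDLR. With Cas9 none of the 5 passed, and the direct test of the difference between editors called VLDLR alone. That VLDLR difference (−0.85, SE 0.214, edgeR adjusted p 0.0229) was lost under 9 of 16 alternatives. ATF5 had a larger difference that missed the threshold (−1.30, SE 0.369, edgeR adjusted p 0.0524). It passed under 7 of 16 alternatives, DESeq2 and limma-voom among them. Adjusted p-values in edgeR's test with base editing were 0.0018 for STC2, 0.00361 for ATF5, 0.0135 for VLDLR, 0.0201 for CEBPG and 0.0284 for JDP2. Of 17 alternatives, 3 ended the call of ATF5, 3 that of STC2, 6 that of VLDLR, 8 that of CEBPG and 9 that of JDP2, among them the model without the line term for JDP2. Leaving out AAVS1 CBE replicate 1 or HOTSCRAMBL CBE replicate 1 ended all 5 calls, and leaving out AAVS1 CBE replicate 2 those of ATF5, VLDLR, CEBPG and JDP2. Without HOTSCRAMBL CBE replicate 2 the calls of VLDLR, CEBPG and JDP2 were lost, and without either AAVS1 KO library those of CEBPG and JDP2. DDIT3, the pro-apoptotic factor CHOP, had low counts: 5.41 and 10.9 CPM in AAVS1 KO, 6.17 and 5.68 CPM in HOTSCRAMBL KO, and, with base editing, 20.3 and 12.1 CPM at AAVS1 and 28.4 and 15.9 CPM at HOTSCRAMBL. It did not pass with Cas9 (log2 −0.45, SE 0.599) or with base editing (log2 0.46, SE 0.331), and its groups overlapped in both comparisons. Other annotated genes cover 39.6% of the DDIT3 exons, among them MARS1 on the opposite strand, and reads in such stretches are missing from its count.

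**Figure D2:**
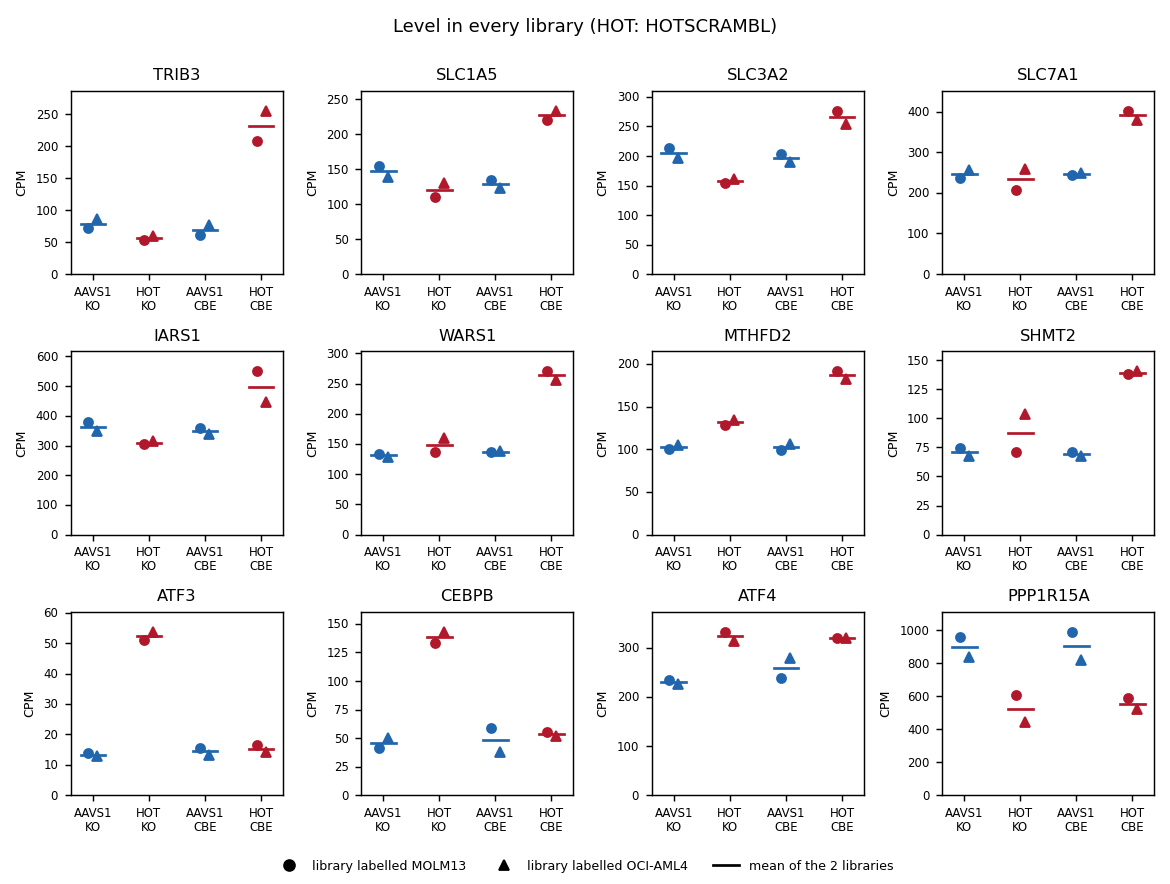
CPM of 12 members in every library, with circles for libraries labelled MOLM13, triangles for those labelled OCI-AML4 and a bar at the mean of each pair. TRIB3, SLC1A5, SLC3A2, SLC7A1, IARS1, WARS1, MTHFD2 and SHMT2 are highest in HOTSCRAMBL CBE, ATF3 and CEBPB in HOTSCRAMBL KO, and PPP1R15A is lower in both HOTSCRAMBL groups.

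Of the 6 serine, glycine and one-carbon enzymes, 4 rose with base editing and 0 passed with Cas9 in edgeR's test, where 1 (MTHFD2) had an unadjusted p under 0.05 and also passed by DESeq2. These enzymes make serine from a glycolytic intermediate and pass its carbon into the mitochondrial folate cycle. Their summed level was 588 and 614 CPM in AAVS1 CBE and 897 and 906 CPM in HOTSCRAMBL CBE, against 576 and 572 CPM in AAVS1 KO and 536 and 628 CPM in HOTSCRAMBL KO. The base editing sums did not overlap with any other group. MTHFD2, a mitochondrial folate dehydrogenase, went from 99.4 and 106 to 192 and 183 CPM with base editing (log2 0.87, SE 0.134, edgeR adjusted p 5.17e-05). SHMT2, the mitochondrial serine hydroxymethyltransferase, went from 71.1 and 67.4 to 138 and 141 CPM (log2 1.01, SE 0.165, edgeR adjusted p 1.19e-04). Both kept their calls under every one of 17 alternative settings. PSAT1, the phosphoserine aminotransferase, went from 34.5 and 47.2 to 76.1 and 82.7 CPM (log2 0.97, SE 0.197, edgeR adjusted p 0.00146), a call lost without AAVS1 CBE replicate 1 (0.73, edgeR adjusted p 0.179), without HOTSCRAMBL CBE replicate 1 (1.00, edgeR adjusted p 0.0724), without HOTSCRAMBL CBE replicate 2 (0.94, edgeR adjusted p 0.0549) and in the fit of only 4 libraries (0.97, edgeR adjusted p 0.0506). PHGDH, which commits glycolytic carbon to serine, passed at 0.42 (SE 0.125, edgeR adjusted p 0.0317) with a mean of 164 CPM, and its call was lost under 9 of 17 alternatives. PSPH (mean 47.6 CPM) and ALDH1L2 (mean 176 CPM) had log2 fold changes of 0.43 and 0.27 that did not pass, although their groups did not overlap. With Cas9 MTHFD2 had the largest value of the 6 at 0.35, with 101 and 105 CPM in AAVS1 KO and 128 and 135 CPM in HOTSCRAMBL KO (SE 0.148, edgeR adjusted p 0.163).

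Of the 5 enzymes of asparagine, proline and cysteine synthesis, 1 rose with base editing and 0 passed with Cas9, in edgeR's test at adjusted or unadjusted p and by DESeq2. CTH, which makes cysteine from cystathionine, went from 7.95 and 10.6 to 29.5 and 21.9 CPM with base editing (log2 1.5, SE 0.341, edgeR adjusted p 0.00422), a call that was lost without HOTSCRAMBL CBE replicate 1 (1.28, edgeR adjusted p 0.261), without AAVS1 CBE replicate 1 (1.06, edgeR adjusted p 0.325) and in the fit of only 4 libraries (edgeR adjusted p 0.0804). ASNS, asparagine synthetase and the textbook target of ATF4 in amino acid shortage, did not pass. With base editing its level went from 17.9 and 15.9 to 13.97 and 9.72 CPM, and with Cas9 from 10.4 and 17.4 to 11.9 and 6.57 CPM. The log2 fold changes were −0.48 (SE 0.366, edgeR adjusted p 0.51) with base editing and −0.61 (SE 0.467, edgeR adjusted p 0.525) with Cas9. A readthrough gene on the same strand covers 49.3% of the ASNS exons and 4 pseudogenes carry its name, so its count leaves out part of its reads. PYCR1 (mean 34.2 CPM) and ALDH18A1 (mean 22.5 CPM), which make proline, and CBS (mean 11.5 CPM), which makes cystathionine, did not pass in either comparison.

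Amino acid transporters were the role with the highest share past the threshold, 6 of 8 with base editing, and all 8 had a positive value. Their summed level was 1222 and 1202 CPM in AAVS1 CBE and 1757 and 1767 CPM in HOTSCRAMBL CBE. With Cas9 1 of 8 passed, and the sum was 1245 and 1291 CPM in AAVS1 KO and 1282 and 1448 CPM in HOTSCRAMBL KO. SLC1A5, the main glutamine importer, went from 135 and 124 to 220.3 and 234 CPM with base editing (log2 0.81, SE 0.131, edgeR adjusted p 1.13e-04) and from 155 and 139 to 111 and 131 CPM with Cas9 (log2 −0.28, SE 0.146, edgeR adjusted p 0.293). SLC1A4, its paralogue for serine and alanine, went from 78.4 and 82.0 to 138 and 165 CPM with base editing (log2 0.91, SE 0.153, edgeR adjusted p 1.79e-04). SLC7A1, the arginine and lysine carrier, went from 245 and 248 to 403 and 379.5 CPM (log2 0.67, SE 0.113, edgeR adjusted p 1.87e-04), with 0.55 and an edgeR adjusted p of 0.0614 when HOTSCRAMBL CBE replicate 1 was left out. In each of these genes both HOTSCRAMBL CBE libraries lay above the other 6.

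SLC7A5 and SLC3A2, the light and heavy chains of the leucine exchanger LAT1, had values of opposite sign with Cas9. SLC7A5 went from 287 and 364 to 498 and 532 CPM with Cas9 (log2 0.67, SE 0.105, edgeR adjusted p 6.57e-05) and from 291 and 312 to 367 and 427 CPM with base editing (log2 0.39, SE 0.104, edgeR adjusted p 0.0142). SLC3A2 stood at 214 and 197 CPM in AAVS1 KO and at 154 and 162 CPM in HOTSCRAMBL KO (log2 −0.38, SE 0.127, edgeR adjusted p 0.0651), while with base editing it went from 203 and 189.6 to 277 and 254 CPM (log2 0.44, SE 0.116, edgeR adjusted p 0.0156). The Cas9 value of SLC3A2 missed the threshold and passed it without TMM (−0.54, edgeR adjusted p 0.00505). It also passed by DESeq2 (−0.36, adjusted p 0.00179) and by the quasi-likelihood fit on the dispersion trend (−0.38, edgeR adjusted p 0.0488). SLC38A2, a glutamine and alanine carrier with a mean of 122 CPM, rose by 0.51 (SE 0.145, edgeR adjusted p 0.0257) with base editing. The base editing calls of SLC7A5, SLC3A2 and SLC38A2 were lost under 7, 7 and 9 of 17 alternatives. SLC7A11, the cystine importer, had a mean of 134 CPM and log2 values of 0.14 with base editing and −0.12 with Cas9, and SLC6A9, a glycine carrier with a mean of 13.3 CPM, had 0.98 and 0.59. Neither passed.

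Among the 11 genes of tRNA charging and export, 7 rose with base editing and 1 with Cas9. Synthetases attach amino acids to tRNAs, and XPOT carries tRNAs out of the nucleus. Their summed level was 2294 and 2280.2 CPM in AAVS1 CBE and 3157 and 2968 CPM in HOTSCRAMBL CBE, and 2273 and 2215 CPM in AAVS1 KO and 2169 and 2206 CPM in HOTSCRAMBL KO. WARS1, the tryptophan enzyme, went from 136 and 139 to 271 and 257 CPM with base editing (log2 0.94, SE 0.125, edgeR adjusted p 6.60e-06) and kept its call under all 17 alternatives. EPRS1, which charges glutamate and proline, was the only one to rise with both: from 111 and 111 to 209 and 194 CPM with base editing (log2 0.87, SE 0.14, edgeR adjusted p 1.03e-04) and from 99.0 and 114 to 144 and 193 CPM with Cas9 (log2 0.66, SE 0.152, edgeR adjusted p 0.00451). The Cas9 call of EPRS1 was lost without AAVS1 KO replicate 1 (0.62, edgeR adjusted p 0.169), without AAVS1 KO replicate 2 (0.73, edgeR adjusted p 0.082), without HOTSCRAMBL KO replicate 2 (0.44, edgeR adjusted p 0.236) and in the fit of only 4 libraries (0.67, edgeR adjusted p 0.0561), and its base editing call without HOTSCRAMBL CBE replicate 1 (0.70, edgeR adjusted p 0.0568). GARS1, the glycine enzyme, went from 163 and 135 to 254 and 221 CPM with base editing (log2 0.67, SE 0.128, edgeR adjusted p 8.08e-04), a call lost without AAVS1 CBE replicate 2 (0.55, edgeR adjusted p 0.0939) and without HOTSCRAMBL CBE replicate 1 (0.59, edgeR adjusted p 0.106).

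Smaller rises with base editing were measured for SARS1 (log2 0.55, mean 106 CPM), XPOT (0.55, mean 243 CPM), IARS1 (0.51, mean 380.2 CPM) and AARS1 (0.50, mean 342 CPM), the serine, isoleucine and alanine enzymes and the tRNA exporter. Their adjusted p-values in edgeR's test were 0.0145, 0.00156, 0.00148 and 0.00157. Of 17 alternatives, 7 ended the call of SARS1 (the model without the line term among them), 3 that of XPOT, and 4 each those of IARS1 and AARS1. Leaving out AAVS1 CBE replicate 1 or AAVS1 CBE replicate 2 ended all 4 calls, leaving out HOTSCRAMBL CBE replicate 1 those of SARS1, IARS1 and AARS1, and leaving out HOTSCRAMBL CBE replicate 2 that of SARS1. NARS1 (mean 221 CPM) and YARS1 (mean 203 CPM), for asparagine and tyrosine, had 0.25 and 0.37 and did not pass. MARS1 (mean 349.8 CPM) and CARS1 (mean 116 CPM), for methionine and cysteine, had −0.10 and −0.17 with base editing and −0.31 and −0.30 with Cas9, and did not pass either. Under alternatives, MARS1 passed as lower with Cas9 without TMM (−0.46, edgeR adjusted p 0.0131) and by limma-voom (−0.31, adjusted p 0.039). Without HOTSCRAMBL KO replicate 1, with a lone library left in that group, it had −0.54 and was also called lower. IARS1 (−0.38, edgeR adjusted p 0.022) and YARS1 (−0.44, edgeR adjusted p 0.0479) also passed as lower with Cas9 without TMM. SARS1 passed as higher with Cas9 by DESeq2 (0.40, adjusted p 0.00484). Both MARS1 and CARS1 carry the strict element TTGCATCA in the promoter stretches shown above, as do AARS1, IARS1 and SLC1A4, which rose.

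Whether the effects differed between editors was tested directly, as the Cas9 effect minus the base editing effect. Of the 43 members 10 passed, 8 with a lower and 2 with a higher effect of Cas9, against 3.19% of all genes tested (1.45% lower and 1.74% higher), and the members' median was −0.55 against −0.01 for all genes. Among the 9645 genes with a mean of at least 10 CPM, 3.37% were lower and 3.72% higher. TRIB3 differed most, by −2.23 (SE 0.227, edgeR adjusted p 3.77e-07), and was the only member whose call held under all 16 alternatives to this test. SLC1A5 differed by −1.09 (SE 0.196, edgeR adjusted p 0.00123), a call lost only without AAVS1 KO replicate 1, where the edgeR adjusted p was 0.0778. The transporters SLC3A2 and SLC7A1 differed by −0.81 and −0.75, the synthetases WARS1, IARS1 and AARS1 by −0.76, −0.74 and −0.65, and VLDLR by −0.85. ATF3 differed by 1.90 (SE 0.451, edgeR adjusted p 0.0154) and CEBPB by 1.46 (SE 0.289, edgeR adjusted p 0.0032). Their calls were lost under 8 and 5 of 16 alternatives, with values from 1.76 to 2.03 and from 1.05 to 1.78. Without the line label in the model 5 were lower and 2 higher. Leaving out single libraries left 1 to 8 lower and 0 to 1 higher, with 1 lower without AAVS1 KO replicate 1. All 11 genes of tRNA charging and export and all 6 serine and one-carbon enzymes had a negative difference, and 7 of 8 transporters did. ASNS, DDIT3 and CHAC1 had differences of −0.12, −0.92 and 0.95 that did not pass.

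**Figure D3:**
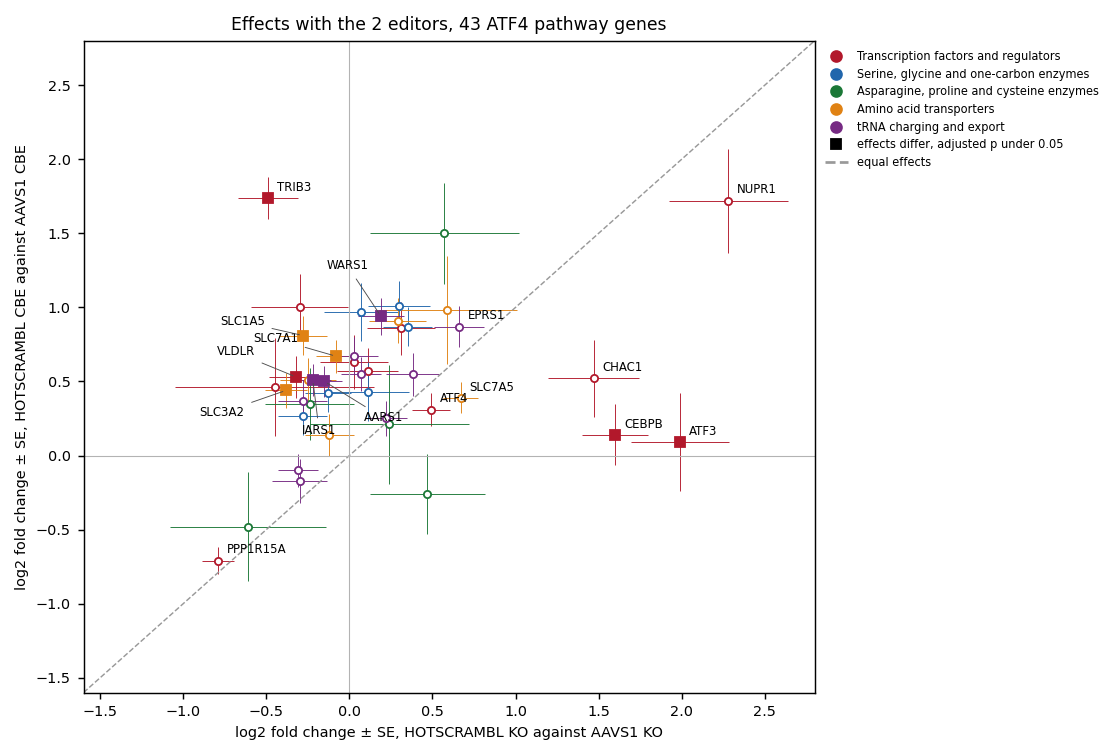
Log2 fold change with Cas9 (x axis) and with base editing (y axis) for the 43 genes, with standard errors as bars and the line of equal effects dashed. Squares are the 10 genes whose 2 effects differed at an adjusted p under 0.05. TRIB3 and 7 further genes lie above the line and ATF3 and CEBPB below it, while PPP1R15A lies close to it at the lower left.

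The control groups gave the background. Between AAVS1 KO and AAVS1 CBE, edgeR called 0 of 43 members and 0.0% of all genes tested. At an unadjusted p under 0.05 there were 2 members, ALDH18A1 (log2 −0.84) and DDIT3 (log2 −0.99), and 918 genes in all. DESeq2 called 35 genes and 0 members. Between libraries labelled MOLM13 and OCI-AML4, edgeR called 0 members and 0.495% of all genes tested. With an unadjusted p under 0.05 there were 7 of the 43 members and 2210 of the 24057 genes tested. PPP1R15A was nearest to the threshold, higher by 0.27 (SE 0.0658, edgeR adjusted p 0.0593) in libraries labelled MOLM13, and passed it under 5 alternatives, with an edgeR adjusted p of 0.0319 without the filter on low counts. TRIB3 differed between the labelled lines by −0.28 (SE 0.109, edgeR adjusted p 0.402).

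Genes of the same pathway outside the 43 were taken from lists. Like the members, these lists were chosen with earlier results of these data known, so their counts are a description only. Of 16 genes upstream of ATF4, which are the eIF2 kinases, the subunits of eIF2 and of its exchange factor eIF2B, and their regulators, 2 rose with base editing (EIF2S3 by 0.59 and EIF2S2 by 0.66, both eIF2 subunits) and none fell. With Cas9 none rose and 2 fell, GCN1 by 0.37 and EIF2B5 by 0.50 on the log2 scale. Both counts are 12.5% of the list, near the 8.83% and 8.76% of all genes tested, and the test of the difference called 0 of the 16, with 1 at an unadjusted p under 0.05. Of 19 other reported ATF4 targets, 7 rose with base editing, led by DDIT4, an inhibitor of mTORC1 (log2 2.27), the branched-chain aminotransferase BCAT1 (1.78) and TXNIP, a thioredoxin inhibitor (1.32). With Cas9 4 of the 19 rose (DDIT4 by 1.43, BCAT1 by 1.45, EIF4EBP1 by 0.68 and TXNIP by 0.51) and 3 fell (VEGFA by 0.97, GPT2 by 0.60 and AKNA by 0.41 on the log2 scale). The test of the difference called 5 of these 19, all lower with Cas9, with VEGFA at −1.16, DDIT4 at −0.84 and GPT2 at −1.54 as the first by p. Of this list 36.8% passed with each editor and 26.3% in the difference. Over all genes tested it was 8.83% with base editing, 8.76% with Cas9 and 3.19% in the difference.

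The 14 other cytosolic synthetases and their scaffold proteins gave a comparison for the tRNA genes. With base editing 2 of them rose, KARS1 by 0.96 and TARS1 by 0.55, with a list median of 0.01, and with Cas9 0 passed, with a median of −0.07 and 3 at an unadjusted p under 0.05. The share with base editing was 14.3% of the list, against 8.83% of all genes tested. Their summed level was 1629.9 ± 61.8 CPM (SD, n = 2) with base editing at AAVS1 and 1671 ± 47.3 CPM with base editing at HOTSCRAMBL, beside 2287 ± 10.1 CPM and 3063 ± 133 CPM for the 11 members of that role. Of 14 further folate, serine, proline and glutathione genes, 0 passed with base editing in edgeR's test, 3 of them with an unadjusted p under 0.05. With Cas9 2 rose, GCLC of glutathione synthesis by 1.59 and the glutamine synthetase GLUL by 0.65, which is 14.3% against 8.76% of all genes tested. Of 18 genes of the parallel XBP1 and ATF6 branches of the endoplasmic reticulum stress response, 5 rose with each editor. That was 27.8%, against 8.83% of all genes tested with base editing and 8.76% with Cas9. XBP1 (1.30), EDEM1 (0.73) and PDIA6 (0.88) led with base editing, and HERPUD1 (1.18), MANF (2.01) and ERN1 (0.78) with Cas9. Only EDEM1 and MANF rose with both. The test of the difference called XBP1 lower with Cas9 (−1.48) and HERPUD1 (1.24) and CRELD2 (2.49) higher.

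RNA of abundant cytosolic messages moved in both comparisons, beside the members. Of 20 such genes, 19 rose with base editing (list median 1.03) and 17 with Cas9 (list median 1.37), and RPLP0, RPLP1 and FTL rose by 1.85, 1.69 and 1.02 with base editing and by 1.75, 1.87 and 1.74 with Cas9. Their summed level was 9161 ± 1007 CPM (SD, n = 2) in AAVS1 KO against 22219.5 ± 3190.4 CPM in HOTSCRAMBL KO, and with base editing it went from 9254 ± 1332 to 20445 ± 1272 CPM. Mitochondrially encoded genes also rose, 16 of 37 with base editing (2 fell) and 19 of 37 with Cas9. Of 15 nuclear-retained transcripts, 3 rose and 4 fell with base editing, and 2 rose and 4 fell with Cas9. With base editing 48.6% of the mitochondrial and 46.7% of the nuclear list passed, against 8.83% of all genes tested. With Cas9 it was 51.4% and 40.0%, against 8.76%. The test of the difference called 4 nuclear-retained transcripts higher and 2 lower with Cas9. XACT had −0.42 with base editing and 1.70 with Cas9. The summed level of all 43 members was 5802 ± 58.6 CPM in AAVS1 KO and 5735 ± 128 CPM in HOTSCRAMBL KO, and with base editing it went from 5873 ± 87.4 to 7621 ± 142 CPM. The members' sum lay above its control in HOTSCRAMBL CBE, and in HOTSCRAMBL KO it overlapped with its control. That sum holds PPP1R15A, the member with the highest CPM. The mean of PPP1R15A went from 898 to 525 CPM with Cas9 and from 904 to 553 CPM with base editing. The sum with Cas9 therefore does not stand for the other members. With Cas9, 24 of the 43 members had a positive log2 fold change and 19 a negative one. The part that the recovery of cytosolic RNA has in the members' values was not tested.

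**Figure D4:**
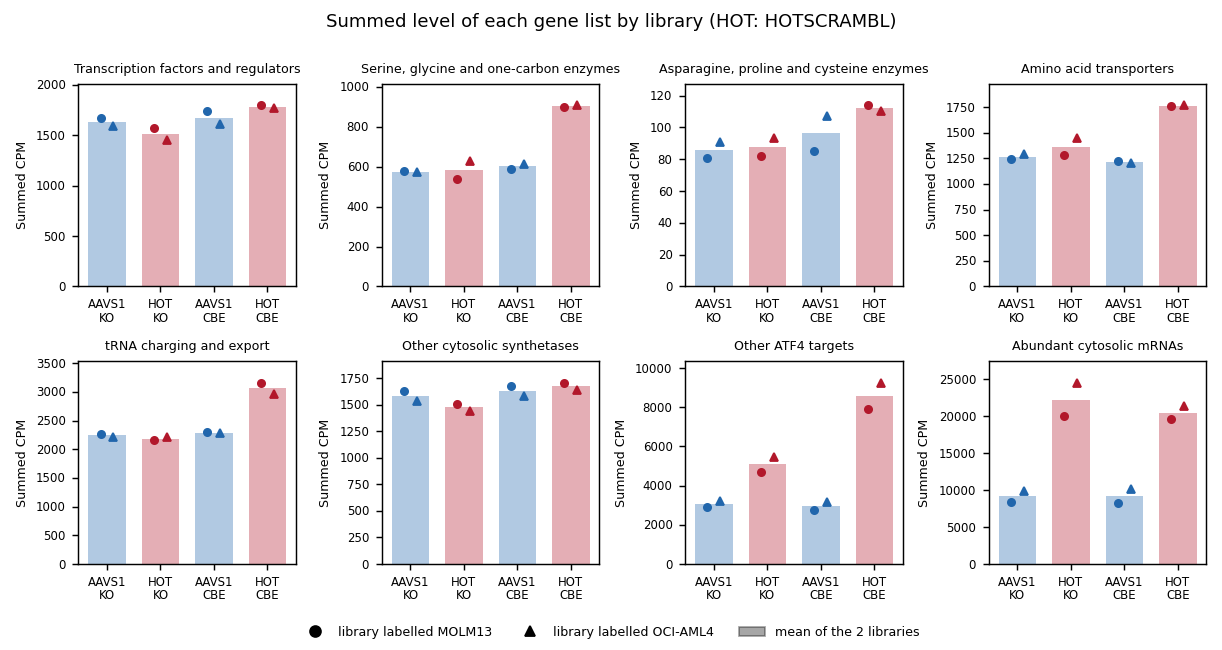
Summed CPM of the members by role and of 3 other lists, with a bar at the mean of the 2 libraries of a group, circles for libraries labelled MOLM13 and triangles for those labelled OCI-AML4. Serine and one-carbon enzymes, transporters and tRNA genes are highest in HOTSCRAMBL CBE, the other cytosolic synthetases differ little between groups, and abundant cytosolic mRNAs are high in both HOTSCRAMBL groups.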

How the data were processed

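The authors deposited 1 table of raw read counts per gene for 8 libraries. Per the file headers, counts came from featureCounts 2.0.6 on GRCh38 with Ensembl 112 annotation, without strand, leaving out reads placed at several positions or over several genes. The aligner is not given in the sources used here. Reads of a pair were counted separately, so counts are not independent molecules. The records of 2 genes broken over lines were rejoined, 62541 of 63140 identifiers had a symbol (99.05%), and 0 columns were unused.

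Tests used edgeR 4.0.16 in R 4.3.3, the robust quasi-likelihood F-test on counts with TMM scaling, a minimum count of 10 (24057 genes kept), terms for the 4 groups and for the labelled line, 3 residual degrees of freedom and a Benjamini-Hochberg threshold of 0.05 over all genes tested. Standard errors are the log2 fold change over the root of F. DESeq2 1.42.0 and limma 3.58.1 served as alternatives. The script was tested on simulated data. Libraries are paired by their stated line. Deviations from group means correlated between groups with r from 0.00851 to 0.0245 over tested genes and 0.0411 to 0.117 over the more abundant ones. Libraries of a group differed beyond counting noise (chi-square per degree of freedom 38.8 to 46.7), and none was treated as a repeat.

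Members and lists were chosen with earlier results of these data known. Every member is named with a level. Those past the threshold have their log2 fold change, the first 12 by p their value in every library, and ATF4, DDIT3, ATF3, CHAC1, TRIB3 and ASNS were given in any case. From other lists up to 3 genes in each direction by p are named for each comparison; more were named after their values were seen. Alternatives were the scaling, the filter, the tool, the line term, the libraries fitted and leaving out each library. The result of 1 marker list is not reported here.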

Additional observations from a re-analysis of the deposited data

Results flagged for a closer look

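For 10 members the effect of targeting HOTSCRAMBL differed between the editors by a direct test (edgeR's interaction contrast, Benjamini-Hochberg adjusted over all genes). Given as the Cas9 effect minus the base editing effect on the log2 scale, the transporters differed by −1.09 for SLC1A5, −0.81 for SLC3A2 and −0.75 for SLC7A1. The synthetases differed by −0.76 for WARS1, −0.74 for IARS1 and −0.65 for AARS1. Among regulators the difference was −2.23 for TRIB3, −0.85 for VLDLR, 1.90 for ATF3 and 1.46 for CEBPB. TRIB3 and SLC1A5 rose with base editing and had negative values with Cas9 (−0.49 and −0.28, neither past the threshold), whereas ATF3 and CEBPB rose with Cas9 and had 0.09 and 0.14 with base editing. Only the TRIB3 difference was called under all 16 alternatives. The call was lost under 1 for SLC1A5, 5 for CEBPB and 6 each for SLC3A2, SLC7A1 and IARS1. It was lost under 8 each for ATF3 and WARS1 and 9 each for AARS1 and VLDLR.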

How the results depend on the processing

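No member that passed changed direction under an alternative, while the members' median with Cas9 went from 0.07 to −0.09 without TMM. Calls held under every alternative for 5 of 8 members with Cas9 (ATF3, SLC7A5, CEBPB, NUPR1, PPP1R15A), 7 of 26 with base editing (TRIB3, SHMT2, MTHFD2, SLC1A5, SLC1A4, PPP1R15A, WARS1) and 1 of 10 in the difference (TRIB3). In the fit of only the 4 libraries of a contrast, 780 genes were called with Cas9 and 677 with base editing, with 11 members higher in the latter. DESeq2 called 4150 genes with Cas9, 3351 with base editing, 2205 in the difference (16 members lower), 35 between controls and 715 between lines (1 member higher, 1 lower). Members lower with Cas9 numbered 6 without TMM, 3 by DESeq2, 2 by limma-voom and 3 by the quasi-likelihood fit on the dispersion trend, an alternative chosen after seeing the data. Between lines limma-voom called 265 genes and the trend fit 193, with 1 member higher in each, as without the filter and at a minimum count of 50. Without the replicate block (the line term) the difference called 503 genes, with 5 members lower; members higher with base editing were 19, and no other count moved by over 1.5 times.

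Leaving out single libraries gave 677 to 1674 genes with Cas9 (members 4 to 7 higher, 1 to 2 lower), 586 to 1885 with base editing (members 7 to 25 higher), 226 to 372 in the difference (members 0 to 1 higher, 1 to 8 lower) and 26 to 65 between lines. A lone library left in a group was assumed to vary like the others. DDIT3, ASNS, CBS, CTH and SLC6A9 had the lowest means, 11.5 to 14.3 CPM, and standard errors of 0.331 to 0.599 in the Cas9 and base editing comparisons; the part of depth in these was not tested.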
